A study of Mus musculus with 4 samples.

Results

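NR6A1 peaks at the locus of Malat1 and Neat1, neighbouring genes for long noncoding RNAs, formed 13 separate regions, and 10 of these were found in both replicates when an overlap of 1 bp counted as shared. That is 76.9%, against 21 of 45 regions or 46.7% in the rest of the surrounding 1-Mb window and 9009 of 28444 or 31.7% over the whole lists. The count was 6 when midpoints within 100 bp were asked for, and 6 in the upper 50% of each list by score. The shares for the window and the whole lists were not recomputed under these settings. The members are all the peaks whose midpoint lies between 5770000 and 5860000 on chromosome 19 of the mouse build mm9, an interval of 90 kb. There were 14 such peaks among the 21507 of replicate 1 and 13 among the 16160 of replicate 2. The interval was chosen because it lies in the 1-Mb window with the most peaks in both lists, 5 to 6 Mb on chromosome 19. Peak counts, densities and the share of regions in both lists are therefore a description with no test, and nothing is supported with them. Wide and closely packed peaks meet a 1-bp rule more easily. How far the share of 76.9% rests on this was not tested. With 2 lists and no reads per peak, no other test of the locus was made either.

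The series measured by chromatin immunoprecipitation and sequencing (ChIP-seq) where NR6A1, an orphan nuclear receptor also called germ cell nuclear factor, sits on chromatin. The cells were an immortalised, monoclonal line of murine mesenchymal stem cells (MSC) of strain C57BL/6, with floxed Dicer alleles (Dicer f/f) that the labels call Dicer WT. In 2 libraries the cells expressed Flag-HA-NR6A1 from the retrovirus pMMP-puro, and 2 further libraries carried the vector. All 4 cultures were selected with puromycin, and all 4 libraries were recovered with the same anti-HA antibody. Since no values of the vector libraries entered the work, signal that the antibody gives at this locus without the tagged protein is not set beside the peaks. The protein was a tagged transgene product in a single cloned line, and nothing in the labels says whether the replicates came from separate infections.

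Malat1 and Neat1 RNAs stay in the nucleus. Malat1 RNA is abundant in many cell types and gathers in nuclear speckles, bodies rich in splicing factors, and its end is processed into the small tRNA-like mascRNA. Neat1 RNA is the scaffold of paraspeckles, bodies that hold RNA-binding proteins such as NONO and SFPQ, and its longer isoform is needed to build them. NR6A1 binds direct repeats of the nuclear receptor half-site AGGTCA and is known as a repressor of pluripotency genes in the early embryo.

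In the RefSeq gene table of build GRCm38.p6, the genes follow each other as Malat1, Mascrna, Neat1 and Frmd8. Positions were not moved between builds. Which peak lies at which gene was therefore not analysed here, and the peaks are called the Malat1 and Neat1 peaks only because the rule for the interval names these genes. The label could not be checked against an mm9 annotation.

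The set of RefSeq promoter sequences used here held 1 of these 2 genes, Malat1. Its sequence is shown because it is the start of a gene that names the locus. It runs 5′ to 3′ on the minus strand, chr19:5802623-5802922 in GRCm38.p6, numbers that belong to that build and are not to be set against the mm9 positions of the peaks. Capitals mark the 50 bases from the annotated start onward, after 250 bases before it.
Malat1: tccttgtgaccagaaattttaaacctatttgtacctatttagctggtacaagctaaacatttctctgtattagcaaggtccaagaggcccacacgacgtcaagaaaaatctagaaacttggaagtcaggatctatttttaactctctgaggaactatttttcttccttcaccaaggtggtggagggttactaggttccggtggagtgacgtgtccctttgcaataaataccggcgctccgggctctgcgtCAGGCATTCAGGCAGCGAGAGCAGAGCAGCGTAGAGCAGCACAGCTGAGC
On neither strand did it hold TCAAGGTCA, the half-site with its usual extension, or the direct repeat of AGGTCA without spacer (DR0), which contains the former. Of 32851 promoter sequences of the same length, 0.423% held the first and 0.00609% the second on either strand. The half-site AGGTCA alone, which is part of both, was likewise not among these letters and was found in 16.3% of promoters. The G and C content of this sequence was 47.0%, against a median of 52.7% over all promoters. These are statements about these letters only, since the sequence under the peaks was not used here.

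The peaks fell into 2 groups, separated by 24.0 kb without a peak of either replicate, from 5818479 to 5842493. The group with the lower coordinates spread 9 regions over 32.1 kb, of which 6 were in both replicates and 3 in replicate 2 only. The group with the higher coordinates packed 4 regions into 8.13 kb, and all 4 were in both. No region of the locus was in replicate 1 only, while 13 of 45 were in the rest of the window and 12317 of 28444 over the whole lists. The map of the peaks shows these groups and the empty stretch between them.

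**Figure D1:**
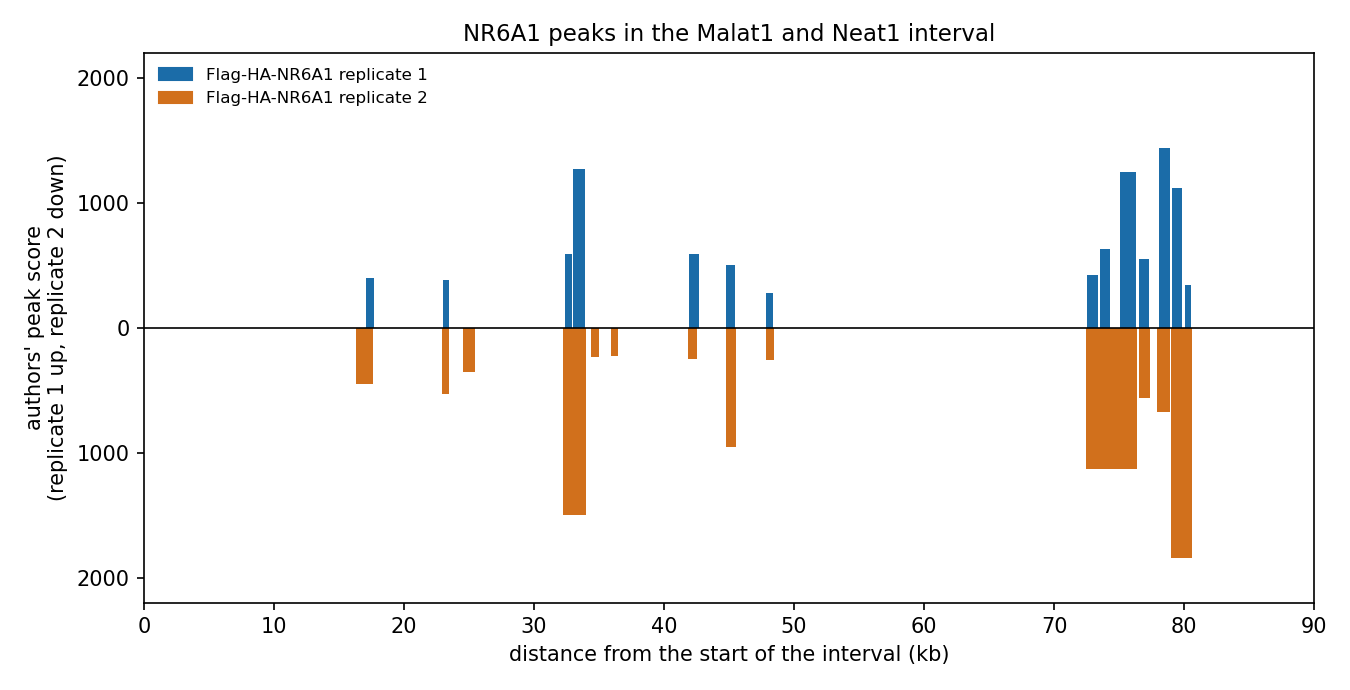
NR6A1 peaks in the 90-kb interval. The horizontal axis is the distance in kb from the start of the interval, each bar is a peak drawn at its width, and its height is the authors' peak score, upward for replicate 1 and downward for replicate 2. The 14 and 13 peaks form a spread-out group and a compact group, with 24.0 kb between them that holds no peak.

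The compact upper group was the part of the locus most filled by peaks. In replicate 1 it ran from 5842544 to 5850534 with 7 peaks, and in replicate 2 from 5842494 to 5850619 with 4. Peaks covered 71.8% of that stretch in replicate 1 and 90.9% in replicate 2, against 14.7% and 24.0% of the lower group. Gaps between neighbouring peaks of the upper group were 153 to 760 bp in replicate 1 and 90 to 522 bp in replicate 2.

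The lists divided 2 of the 4 upper regions differently. The first region, 5842494 to 5846396, was a single peak of 3903 bp in replicate 2 with a score of 1132.46. Only 5 peaks of the replicate 2 list were as wide or wider, itself included. In replicate 1 the same stretch held 3 peaks, at 5842544 to 5843342, 5843556 to 5844312 and 5845073 to 5846317. Their scores were 419.3, 632.34 and 1245.46, so the third was the highest of the 3. It stood at percentile 89.0 of its list, and the undivided peak at percentile 88.5 of its own.

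The next 2 regions had 1 peak in each list. The first lay at 5846510 to 5847305 in replicate 1, scoring 547.94 (percentile 63.4 of its list), and at 5846526 to 5847398 in replicate 2, scoring 564.4 (percentile 67.6). The second lay at 5848029 to 5848886 in replicate 1, scoring 1436.96 (percentile 91.6), and at 5847921 to 5848927 in replicate 2, scoring 677.58 (percentile 74.8). This peak was the highest of the locus in replicate 1 and the fifth highest in replicate 2.

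The last region, 5849018 to 5850619, was a single peak of 1602 bp in replicate 2 with a score of 1839.81, the highest of the locus in that list. Replicate 1 had 2 peaks in its place, 5849040 to 5849840 with a score of 1116.99 and 5850050 to 5850534 with 345.14. The lists therefore put their top score at neighbouring regions and not at the same one. The score is the authors' own value for each peak, read here only as a rank within its list, because depth and background of a library enter it. Raw scores of the 2 lists are printed side by side and not compared.

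**Figure D2:**
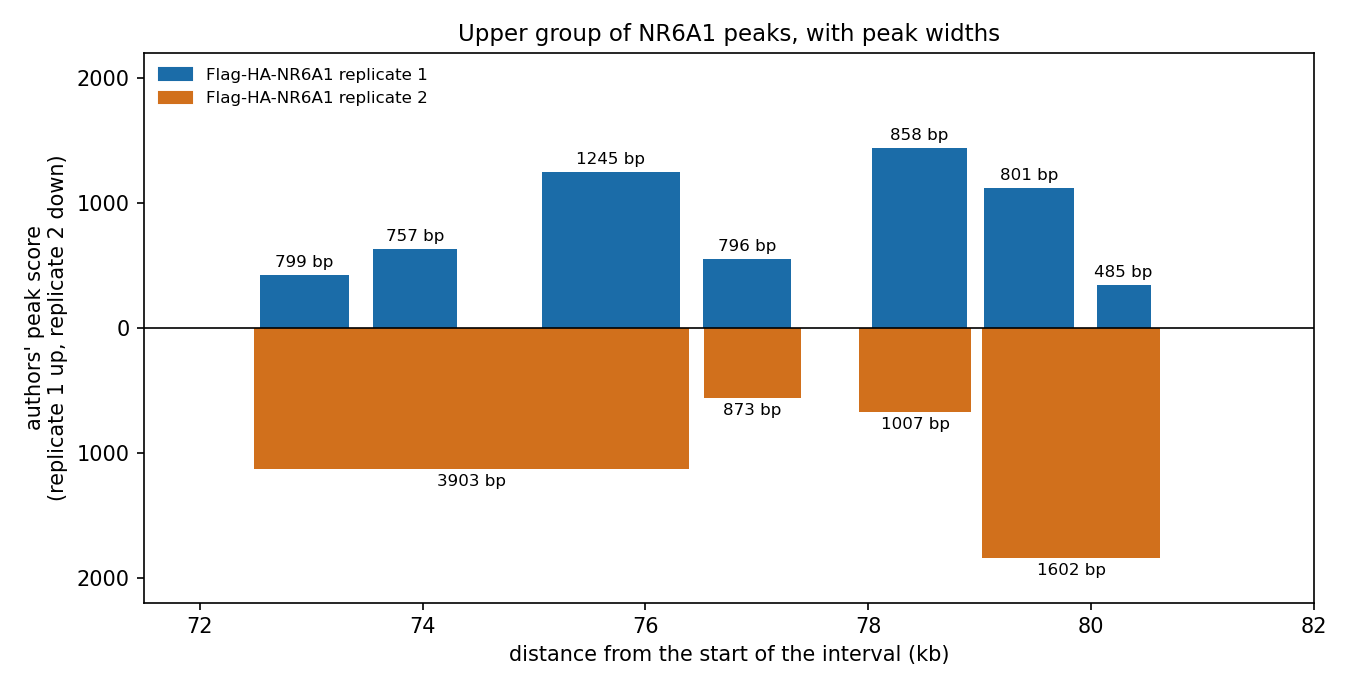
The upper group of peaks in detail. The horizontal axis is the distance in kb from the start of the interval and the vertical axis the authors' score, upward for replicate 1 and downward for replicate 2, with each peak's width in bp printed at its bar. The peak of 3903 bp in replicate 2 faces 3 peaks of replicate 1, and the peak of 1602 bp faces 2.

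In each list 1 peak of the lower group scored 1000 or more, and both lay in the same region. This region, 5802240 to 5803965, was a single peak of 1726 bp with a score of 1496.91 in replicate 2, where it ranked second in the locus. In replicate 1 it was divided by 84 bp into peaks of 575 bp at 5802368 to 5802942, scoring 590.21, and of 929 bp at 5803027 to 5803955, scoring 1269.27. The latter also ranked second in the locus in its list, so this region held the same place in both.

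The other regions of the lower group that both lists shared had lower scores. The first peak of the locus lay at 5787044 to 5787708 in replicate 1, scoring 394.9, and at 5786337 to 5787614 in replicate 2, scoring 446.02. The next shared region lay at 5792988 to 5793496 (score 380.5) and at 5792891 to 5793481 (score 531.67). The last one before the empty stretch lay at 5817866 to 5818368 (score 277.19) and at 5817846 to 5818478 (score 254.81). These 3 regions stood in the lower or middle part of the locus in each list.

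The lists ranked the remaining 2 shared regions of the lower group in opposite order. One lay at 5811938 to 5812683 in replicate 1, scoring 593.19 (percentile 66.8), and at 5811868 to 5812554 in replicate 2, scoring 245.98 (percentile 18.0). The other lay at 5814788 to 5815460 in replicate 1, scoring 505.5 (percentile 59.6), and at 5814760 to 5815493 in replicate 2, scoring 956.73 (percentile 85.0). The midpoints of the latter pair lay 2.5 bp apart.

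The 3 regions of replicate 2 only were at 5794542 to 5795446, 5804382 to 5804989 and 5805912 to 5806470. Their scores were 355.78, 231.06 and 227.47. The last 2 were the lowest scores of the locus in that list, not far above the lowest score of the whole list, 200.04. Whether replicate 1 had reads there cannot be told from the lists.

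Of the 10 shared regions, 7 had a single peak in each list. The midpoints of these 7 pairs lay a median of 54.5 bp apart (range 2.5 to 400.5 bp), against 35.0 bp over 8816 such pairs of the whole lists. Within 100 bp were 6 of the 7, and 84.5% over the whole lists. In 6 of the 7 the peak of replicate 2 was wider, as it was in 6158 of the 8816 pairs and in 14 of 21 in the rest of the window. The median ratio of widths, replicate 2 over replicate 1, was 1.16 in the locus, 1.13 over the whole lists and 1.17 in the rest of the window.

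A partner, meaning a peak of the other list that overlapped by at least 1 bp, was found for 14 of the 14 replicate 1 peaks in the interval (95% Wilson interval 78.5 to 100.0%). Over the whole list 42.7% of replicate 1 peaks had one, and in the rest of the 1-Mb window 21 of 34 or 61.8% did (45.0 to 76.1%). In replicate 2, 10 of the 13 peaks or 76.9% had a partner (49.7 to 91.8%), against 56.0% of the whole list and 21 of 32 or 65.6% in the rest of the window (48.3 to 79.6%). The Wilson intervals reflect counting error alone, peaks of a locus are not independent, and the window was chosen on the counts of both lists, so no test was made. The share for replicate 1 also rests on the definition of a partner. It was 57.1% with a reciprocal overlap of 50% and 42.9% with midpoints within 100 bp. In replicate 2 the share was 61.5% and 46.2% under these rules. Over the whole lists, 7447 of the 8816 pairs with a single peak in each list had midpoints within 100 bp, among 21507 and 16160 peaks. Whole-list shares under these rules were not computed, but these pairs set a lower limit for the midpoint rule. In replicate 2 that limit is close to the 46.2% of the locus, so no clear excess remained. In replicate 1 it is below the 42.9% of the locus but inside its Wilson interval, 21.4 to 67.4%. An excess over the lists is therefore shown for the 1-bp rule only.

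Counted in bases, 97.5% of the 10341 bp in replicate 1 peaks of the interval were also in replicate 2 peaks, and 66.8% of the 15106 bp in replicate 2 peaks were in replicate 1 peaks. Over the whole lists these shares were 42.1% and 49.3%, and in the rest of the window 62.7% and 60.2%. The replicate 1 peaks of the locus thus lay almost wholly within those of replicate 2, which reached further.

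Divided peaks were more frequent by count in the locus than in the rest of its window, a difference that was not tested. Of the 13 replicate 2 peaks, 3 overlapped more than 1 replicate 1 peak, against 1.08% of the whole list and 0 of 32 in the rest of the window. The 3903-bp peak is 1 of 6 peaks of that list, or 0.0371%, with 3 or more partners. The reverse, a replicate 1 peak with more than 1 partner, occurred in 0 of the 14 locus peaks and in 0.149% of the whole list. All 3 cases are described above, and 2 of them lie in the upper group.

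The peaks of the locus were also wide, most of all in the upper group. The median width was 751.5 bp in replicate 1, where the whole list had 538 bp with quartiles of 462 and 665 bp. In replicate 2 it was 873 bp, where the whole list had 613 bp with quartiles of 530 and 742 bp. Above the upper quartile of their list were 9 of 14 and 7 of 13 peaks. In the rest of the window the medians were 544.5 and 605.5 bp, close to those of the lists. By group, the medians were 799 bp in replicate 1 and 1304.5 bp in replicate 2 for the upper group. For the lower group they were 665 and 687 bp, not above the upper quartile of either list.

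In score the locus as a whole stood above the middle of the lists and well below their top. The median peak was at percentile 65.0 of the scores of replicate 1 and 64.8 of replicate 2, against 37.5 and 42.8 in the rest of the window. The 2 groups differed in this. The upper group had median percentiles of 69.2 in replicate 1 and 81.7 in replicate 2. The lower group had 59.6 and 43.8, so in replicate 2 it stood below the middle of the list and near the rest of the window. Single peaks ranged from percentile 24.6 to 91.6 in replicate 1 and from 11.4 to 95.4 in replicate 2. A score of 1000 or more was reached by 4 of 14 peaks in replicate 1, or 28.6% (11.7 to 54.6%), against 15.9% of the list. In replicate 2 it was reached by 3 of 13, or 23.1% (8.18 to 50.3%), against 14.0%. These shares are descriptions of a few neighbouring peaks, and their difference from the lists was not tested. The highest scores of the window lay outside the locus. They were 2340.65 at 5444395 to 5445509 in replicate 1 and 3086.28 at 5045213 to 5045965 in replicate 2.

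**Figure D3:**
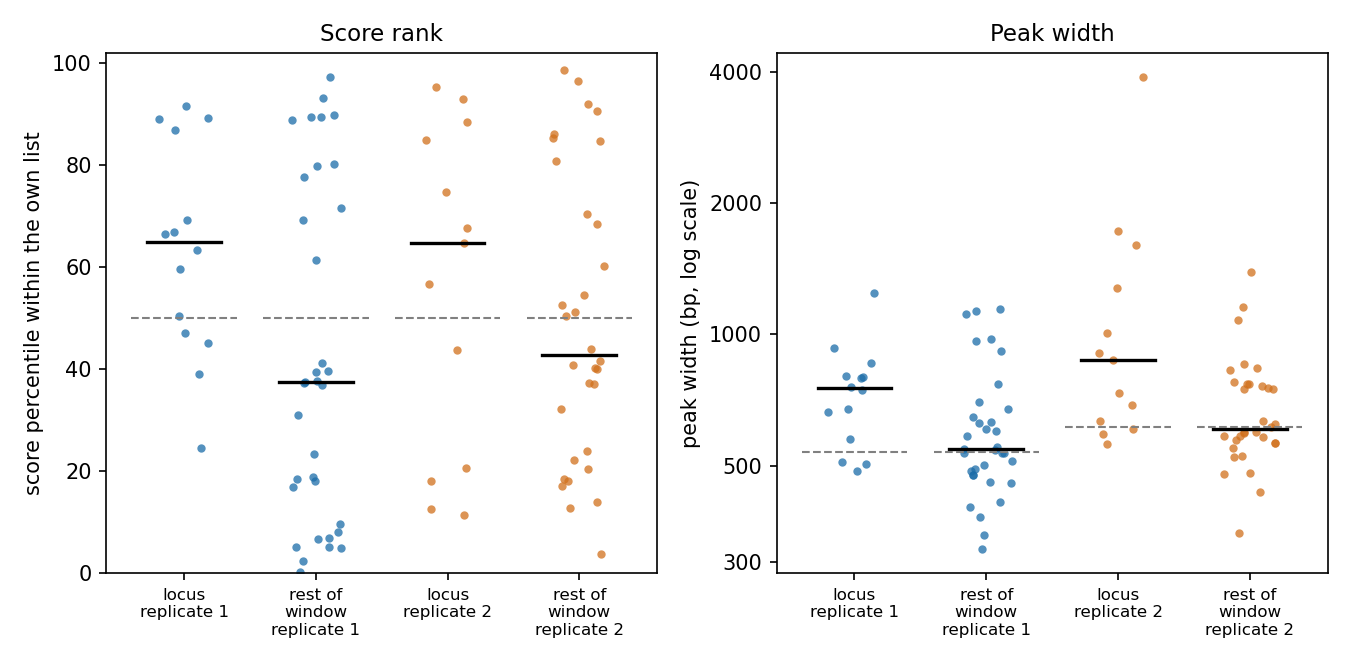
Score percentile within the own list (left) and peak width in bp on a log scale (right) for each peak of the locus and of the rest of the 1-Mb window, by replicate. Solid lines are medians of the points and dashed lines the median of the whole list; the locus medians are at percentiles 65.0 and 64.8 and at widths of 751.5 and 873 bp.

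The counts that chose the interval are given for description. It held 15.6 peaks per 100 kb in replicate 1 and 14.4 in replicate 2, and the rest of the window 3.74 and 3.52. The ratio was 4.16 in replicate 1 and 4.11 in replicate 2, a mean of 4.14 ± 0.0394 (SD, n = 2). This SD is no measure of precision. It was 1.74 when both lists had the same length. The interval is 9.0% of the window and held 29.2% of its replicate 1 peaks and 28.9% of its replicate 2 peaks. Every peak of the locus had another midpoint of its list within 10 kb, as did 47.2% of the replicate 1 list and 42.9% of the replicate 2 list, which follows from the choice of a dense window.

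**Figure D4:**
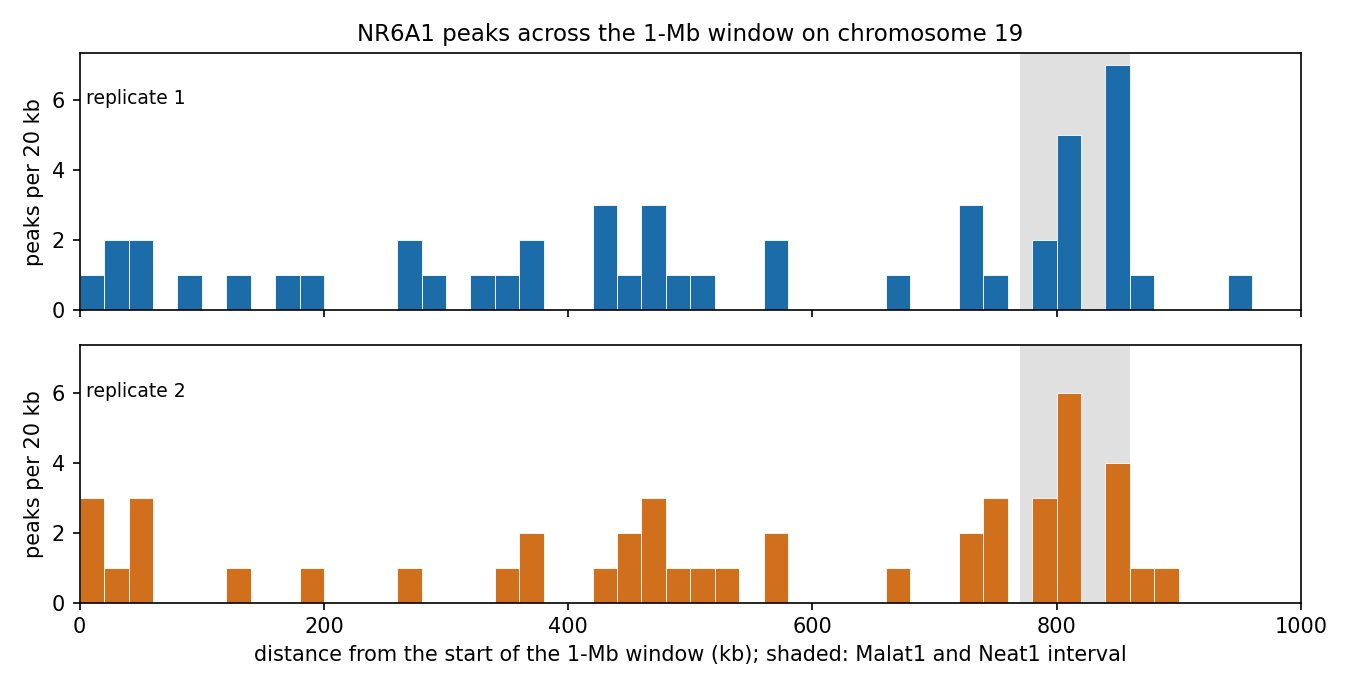
NR6A1 peaks per 20 kb along the 1-Mb window, replicate 1 above and replicate 2 below. The horizontal axis is the distance in kb from the start of the window, and the shaded band is the 90-kb interval, which holds 14 and 13 peaks and the fullest bin in each list.

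The limits of the interval lie in stretches without peaks, and widening it by 10 kb on each side added no peak. Before the first peak of the locus, 42.9 kb in replicate 1 and 36.4 kb in replicate 2 were empty. The nearest peak on that side, 5743504 to 5744104 in replicate 1, scored 524.57, and in replicate 2 it was 5749306 to 5749919, scoring 322.37. After the last peak 23.5 kb were empty in either list. The next peak was in both lists, and scored 348.18 in replicate 1 (5874040 to 5874646) and 242.7 in replicate 2 (5874092 to 5874677).

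Among stretches of equal length the locus was near the top of the genome in both lists, a rank that follows in part from its choice. Its window was chosen for its peak counts, and the tiles were laid to hold the interval whole, which other clusters need not be. The ranks are therefore a description only. When every chromosome was divided into tiles of 90 kb, laid so that the interval was a tile, 1 tile held more peaks in each list, and it was the same tile, on chromosome 6 at 52120000 to 52209999, with 17 peaks in replicate 1 and 16 in replicate 2. In replicate 1, 2 other tiles tied with the locus at 14, and none tied in replicate 2 at 13. For the upper group, the bases in peaks over 10 kb from the start of a peak were counted. The 10 kb from its first peak held 5741 bp in replicate 1 and 7385 bp in replicate 2. In each list 1 peak start gave more. It was on chromosome 5 at 143579093 in replicate 1, with 6607 bp, and on chromosome 10 at 126725337 in replicate 2, with 9857 bp. The upper group was thus second in both lists by this measure, behind a different place in each.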

How the data were processed

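ChIP-seq peak lists of the 2 Flag-HA-NR6A1 libraries were used, 1 list per replicate. Per the submitters' processing notes, Bowtie 0.12.7, MACS and build mm9 were used, without stated roles; the MACS version, control and threshold are not given in the sources used here. The deposited score of each peak is the authors' value, read here as MACS's transformed p-value; exactly 3100 is shared by 239 and 187 peaks, 26 and 24 peaks lie above it, and all of these were ranked as equal. No locus peak is among them. Read depth is unknown. Positions are mm9, first base 1.

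Partners overlapped by at least 1 bp, and connected partners formed a region. Shares have Wilson intervals. Code ran in Python 3.11.15 with numpy 2.4.6, pandas 2.3.3 and scipy 1.17.1, and was tested on simulated lists. Every peak of the interval is named by position. The locus, groups and measures were chosen with earlier results of these data known. Peaks near speckle and paraspeckle genes and motifs in peaks were not analysed here, for want of mm9 annotation and sequence. RefSeq sequences are of GRCm38.p6.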

Additional observations from a re-analysis of the deposited data

How the results depend on the processing

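Of 36 values recomputed with another setting, 23 moved by less than their spread or interval (for counts, by at most 1.5 times) and 13 moved further. Whether a direction reversed was not assessed. Leaving out 1 of 2 replicates always moves their mean by less than their SD, the spread used. Those values were therefore among the 23 by construction and say nothing on stability. The count of 10 regions in both lists was 6 with midpoints within 100 bp and 6 in the upper 50% of each list by score, and 8 to 10 under the other 5 settings. The share of peaks with a partner moved for replicate 1 with reciprocal overlap (57.1%) and close midpoints (42.9%), and for replicate 2 with close midpoints (46.2%). The density ratio of 4.14 was 6.91 (SD 2.14) in the upper 50% and 5.34 (SD 1.74) when both lists had the same length. It was 3.31 and 5.17 with the interval widened or narrowed by 10 kb, and 13.3 against chromosome 19 outside the locus. From the first to the last peak, a setting chosen after seeing the data, it was 5.95. Because the SD of the ratio of 4.14 was only 0.0394, small changes already counted as moves. The mean score percentile of 64.9 was 64.0 within chromosome 19 and 65.8 without peaks at or above 3100. Leaving out a replicate gave density ratios of 4.11 to 4.16, percentiles of 64.8 to 65.0 and median widths of 752 to 873 bp, the last 2 added after seeing the data. For none of these changes was the cause tested. A partner cannot be counted without a replicate. No paired analysis was possible because no vector list was used here. The gene list, the motif in peaks and their alternatives were not run. With no reads per peak, a missing peak cannot be told from one just under the threshold.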
